A study of Homo sapiens with 4 samples.

Results

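The S100 genes encode small proteins that bind calcium through paired EF-hand motifs. The transcripts of S100A4, S100A6, S100A8, S100A9, S100A10, S100A11 and S100A12 were chosen by symbol, and Ensembl IDs were matched to symbols through GENCODE v44. Of these 7 genes, 6 had a row among the 18567 genes of the table and all 6 passed the filter on low values. S100A12 was not analysed here.

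RNA was sequenced from Kasumi-1, an established human acute myeloid leukemia (AML) line that carries the RUNX1-RUNX1T1 fusion. The NC group (n = 2) carries the hairpin entry none in its labels, whereas the study itself names a control hairpin, sh-NC. The sh-ANP32B group (n = 2) carried a short hairpin RNA against ANP32B, a histone-binding nuclear protein. Stable cells were made with lentivirus and puromycin, and which of the study's 3 hairpins was used in either sample is not given in the sources used here. If the NC cells carried no hairpin, infection and selection cannot be told apart from knockdown. The labels do not state separate cultures, so the p-values measure the spread between these samples, which may be technical.

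S100 proteins act as dimers. Calcium binding opens a surface on which they hold partner proteins inside the cell, and several are also secreted and bind receptors on other cells. S100A8 and S100A9 form calprotectin, an abundant cytosolic complex of mature neutrophils and monocytes that scarcely occurs in early myeloid blasts. S100A10 differs from the rest in that it no longer binds calcium and is held together with annexin A2. Most S100 genes lie side by side on the long arm of chromosome 1.

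Levels are given as TPM, a length-corrected share of all transcripts of the same sample. Log2 fold changes (log2FC) are sh-ANP32B minus NC of log2(TPM + 1), a scale that compresses scarce transcripts, and were tested with limma over 16817 genes with Benjamini-Hochberg adjustment. A second rule is the study's criterion, an unadjusted p under 0.05 with a log2FC beyond 0.5 in either direction, applied here to the p of limma. In bulk RNA a higher level in every cell and a larger share of cells with the transcript cannot be told apart.

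ANP32B had 383.8 and 392 TPM in the NC samples and 51.8 and 41.2 TPM in the sh-ANP32B samples, so the labels matched the targeted gene. From 15973 to 16540 genes were at 1 TPM or more, depending on the sample. Mitochondrial transcripts made up 12.9% and 13.1% of the NC samples, and 11.4% and 8.43% of the sh-ANP32B samples. RUNX1T1, the fusion partner gene, ranged over 15.6 to 17.6 TPM in NC, then 26.8 to 31.2 TPM under sh-ANP32B, and CD33 had 58.5 to 70.1 TPM over all samples. KIT, a progenitor receptor that this line is known to express strongly, was low, at 1.55 to 3.41 TPM. Of the 8 markers of the line 6 were tested, with 0 at an adjusted p under 0.05, and 3 were higher and 1 lower by the criterion described above, where 12.1% and 6.55% of all genes were (median log2FC 0.54). The higher ones were RUNX1T1, ANPEP and PTPRC (log2FC 0.77, 0.61 and 0.59), and the lower one was HLA-DRA (log2FC -0.65). HLA-DRA was scarce, at 3.95 and 4.3 TPM in NC, then 2.63 and 1.93 TPM under sh-ANP32B. CD34 and MPO, also known markers of the line, were not analysed here, so the label was not checked by them.

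All 6 genes lie on chromosome 1 of hg38, from S100A10 (151982915 to 151993859, minus strand) and S100A11 (152032506 to 152047907, minus) through S100A9 (153357854 to 153361023, plus) and S100A8 (153390032 to 153391073, minus) to S100A6 (153534599 to 153536244, minus) and S100A4 (153543613 to 153550136, minus). The bases before their start sites were read from the RefSeq promoter table (GRCh38.p14), which held all 7 genes. For S100A8, which has 3 listed starts, the start that coincides with the GENCODE gene end was used. The starts used for S100A4 (153545806), S100A6 (153535991) and S100A11 (152037004) lie inside the gene spans given above. The 250 bases before the start of S100A8 and of S100A9 are shown whole, because these genes encode the chains of one complex. Capitals mark matches to TATAAA (the TATA box) and to GAGGAA, the core of the site of the myeloid factor PU.1, which reads TTCCTC on the opposite strand.
S100A8 chr1:153391074-153391323, minus strand: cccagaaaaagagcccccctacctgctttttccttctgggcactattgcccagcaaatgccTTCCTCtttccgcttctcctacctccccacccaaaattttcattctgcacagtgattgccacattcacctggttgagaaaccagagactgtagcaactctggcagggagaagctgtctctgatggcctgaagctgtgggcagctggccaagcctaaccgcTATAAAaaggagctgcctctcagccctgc
S100A9 chr1:153357604-153357853, plus strand: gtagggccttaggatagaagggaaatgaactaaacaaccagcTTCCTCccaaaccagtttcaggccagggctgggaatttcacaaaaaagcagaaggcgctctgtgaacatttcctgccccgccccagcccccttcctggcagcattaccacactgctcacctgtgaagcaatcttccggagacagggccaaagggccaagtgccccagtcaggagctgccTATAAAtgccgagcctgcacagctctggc
In both sequences the TATA match begins 29 bases before the start, and the PU.1 match lies further upstream, beginning at base -189 in S100A8 and at base -208 in S100A9.

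For the other 4 genes the last 60 bases before the start are shown, to compare the part that holds the TATA match. The capitals in S100A11 mark a match to TTGCNNAA, the half-palindromic core of C/EBP sites, on the opposite strand.
S100A4 chr1:153545807-153545866, minus strand: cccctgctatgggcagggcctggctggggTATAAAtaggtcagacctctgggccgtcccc
S100A6 chr1:153535992-153536051, minus strand: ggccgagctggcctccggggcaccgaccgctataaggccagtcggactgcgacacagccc
S100A10 chr1:151993860-151993919, minus strand: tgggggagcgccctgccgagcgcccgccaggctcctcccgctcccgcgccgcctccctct
S100A11 chr1:152037005-152037064, minus strand: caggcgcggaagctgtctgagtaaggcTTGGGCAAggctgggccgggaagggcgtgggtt
TATAAA was found in 3 of the 6 promoter windows of 300 bases (S100A4, S100A8 and S100A9), against 11.5% of all 35116 windows, on either strand. GAGGAA was found in 2 of the 6, against 27.9% of windows, and TTGCNNAA in 1, against 10.5%. TGANTCA (AP-1) and CACGTG (the E-box bound by MYC) were found in 0 of the 6, against 7.71% and 7.26% of windows. In S100A6 the letters ctataag stand where the TATA match stands in S100A4, and S100A10 has no such run in its last 60 bases, which are 81.7% G or C.

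With knockdown of ANP32B, 5 of the 6 S100 genes were higher by one of the rules, and 0 were lower. S100A4 and S100A6 rose with an adjusted p under 0.05. S100A8, S100A9 and S100A10 passed the study's criterion but not the adjusted p, and S100A11 passed neither. The count at an adjusted p under 0.05 was thus 2 of 6, where 2.14% of all genes tested were higher by this rule. The count past the study's criterion was 5 of 6, where 12.1% of all genes were higher by that rule. The sh-ANP32B values lay above both NC values in 6 of 6, which was the case for 33.2% of all genes. The median log2FC was 0.76 over the 6 genes and 0.08 over all genes tested. These genes and the lists below were chosen with earlier results of these data known. Their counts therefore describe them and are no test against all genes.

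S100A4 (ENSG00000196154), which binds nonmuscle myosin IIA and is linked to cell motility, was the most abundant of the 6. It measured 689.5 and 687 TPM in NC, then 1105 and 1081 TPM under sh-ANP32B. The replicates lay close together in both groups, which did not overlap. On average S100A4 went from 688 ± 1.78 to 1093 ± 17.2 TPM (SD, n = 2 each), 1.59 times the NC level, with a log2FC of 0.67 (SE 0.116, limma adjusted p 0.0440). Without NC replicate 1 or 2 the log2FC was 0.67 or 0.66 and the call was lost (limma adjusted p 0.362 and 0.393). The GENCODE model of S100A4 overlaps S100A3 on the same strand, and S100A3 stood at 0.259 to 2.61 TPM over all samples.

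S100A6 (ENSG00000197956), or calcyclin, a partner of CACYBP in proliferating cells, measured 281.4 and 267.5 TPM in NC, then 468 and 647.9 TPM under sh-ANP32B. Both sh-ANP32B samples were high, replicate 2 more so. The mean went from 274 ± 9.88 to 558 ± 127 TPM (SD, n = 2 each), a ratio of 2.03, with a log2FC of 1.00 (SE 0.174, limma adjusted p 0.0439). On the log2 scale replicate 2 minus replicate 1 was 0.47 in sh-ANP32B and -0.07 in NC. The longest S100A6 transcript has a GC content of 60.2%. After a GC correction of each sample the log2FC was 0.78 and the limma adjusted p 0.00678. The call was lost with median-of-ratios scaling, without the abundance trend of limma and without NC replicate 2 (limma adjusted p 0.0520, 0.122 and 0.0880).

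S100A8 (ENSG00000143546), the smaller chain of calprotectin, measured 1.39 and 0.466 TPM in NC, then 3.67 and 6.63 TPM under sh-ANP32B. Both sh-ANP32B values were above both NC values, but the transcript was scarce throughout and 1 NC value was below 1 TPM. Its means were 0.926 ± 0.651 and 5.15 ± 2.10 TPM (SD, n = 2 each). The ratio of the means was 5.56, and the log2FC of 1.67 (SE 0.385, 95% interval 0.75 to 2.59) was the largest of the 6, with a limma p of 0.00378 and an adjusted p of 0.0669. The pseudocount of 1 TPM is as large as the NC level itself, and with a pseudocount of 0.1 the log2FC was 2.46. It was 2.03 without NC replicate 1 or without sh-ANP32B replicate 1, and 1.32 without replicate 2 of either group.

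S100A9 (ENSG00000163220), the larger chain, measured 6.53 and 6.56 TPM in NC, then 10.96 and 14.65 TPM under sh-ANP32B. The NC replicates were nearly equal, and both sh-ANP32B values were higher. The ratio of the means was 1.96, with a log2FC of 0.86 (SE 0.219, limma p 0.00631, adjusted p 0.0813). S100A8 amounted to 21.2% and 7.11% of S100A9 in the NC samples, and to 33.5% and 45.3% in the sh-ANP32B samples. The groups did not overlap in this ratio, and an exact permutation test of 2 against 2 samples cannot give a two-sided p under 0.333.

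S100A10 (ENSG00000197747), or p11, forms a complex with annexin A2 and binds plasminogen activators at the cell surface. It measured 64.4 and 59.5 TPM in NC, then 84.7 and 107.5 TPM under sh-ANP32B. All values of the knockdown group were higher, by a ratio of means of 1.55 and a log2FC of 0.62 (SE 0.161, limma p 0.00709, adjusted p 0.0845).

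S100A11 (ENSG00000163191), or calgizzarin, a partner of annexin A1, was the second most abundant of the 6 in NC. It measured 453.4 and 450 TPM in NC, then 549 and 467.5 TPM under sh-ANP32B. The groups did not overlap, but the sh-ANP32B replicates differed more from each other than the lower one did from NC. The log2FC was 0.17 (SE 0.131, 95% interval -0.15 to 0.48, limma adjusted p 0.495), so an increase of more than 0.48 lay outside the interval. S100A11 has processed pseudogenes with which it can share reads, and its level is uncertain to that extent.

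**Figure D1:**
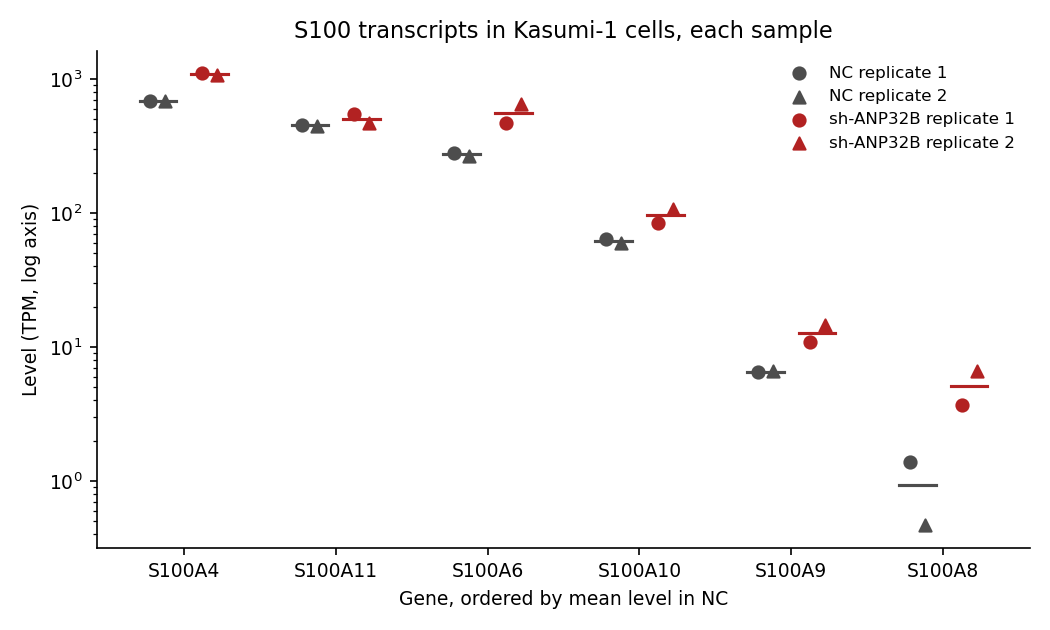
Level of 6 S100 transcripts in each sample (TPM, log axis), with genes ordered by their mean in NC. Circles are replicate 1, triangles replicate 2 and bars the group means. S100A4 moved from 688 to 1093 TPM and S100A8 from 0.926 to 5.15 TPM, whereas the bars of S100A11 nearly coincide.

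In NC the order of mean levels was S100A4 (688 TPM), S100A11 (452), S100A6 (274), S100A10 (61.9), S100A9 (6.54) and S100A8 (0.926), and neighbours in that order did not overlap between samples. In sh-ANP32B the order of S100A11 and S100A6 was no longer settled, since the values were 549 and 467.5 TPM for S100A11 and 468 and 647.9 TPM for S100A6. S100A6 was 40.8% and 38.9% of S100A4 in NC, and 42.4% and 59.96% in sh-ANP32B. The 6 transcripts together made up 0.15% and 0.147% of the table in NC, and 0.223% and 0.233% in sh-ANP32B. Calprotectin transcripts thus remained a small part of the S100 pool in both groups.

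The other S100 genes were listed as well. Of 15 symbols, 7 had a row and 6 were tested, of which 0 had an adjusted p under 0.05 and 1 passed the study's criterion. That gene was S100P, on chromosome 4, a secreted S100 protein that binds the receptor RAGE. S100P measured 55.5 and 51.1 TPM in NC, then 73.7 and 87.2 TPM under sh-ANP32B, with a log2FC of 0.58 (SE 0.149, limma p 0.00655, adjusted p 0.0819). S100A1, S100A3 and S100B stayed at or under 2.96 TPM in every sample. Their log2FC values of 0.59, 0.77 and 0.48 had intervals that included 0.

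S100A13 ranged over 4.62 to 5.47 TPM in NC, then 5.83 to 6.58 TPM under sh-ANP32B, with a log2FC of 0.26 (limma adjusted p 0.549). Its model overlaps that of S100A1 on the opposite strand, and since no source here says if reads were assigned by strand, the levels of both are uncertain. S100PBP, which encodes an S100P-binding protein and is not an S100 gene, had a log2FC of -0.30 (limma adjusted p 0.431) with overlapping groups. S100A2 did not pass the filter, at 0.607 and 0.690 TPM in NC, then 0.402 and 2.62 TPM under sh-ANP32B. The median log2FC of the 6 tested, S100PBP included, was 0.53.

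**Figure D2:**
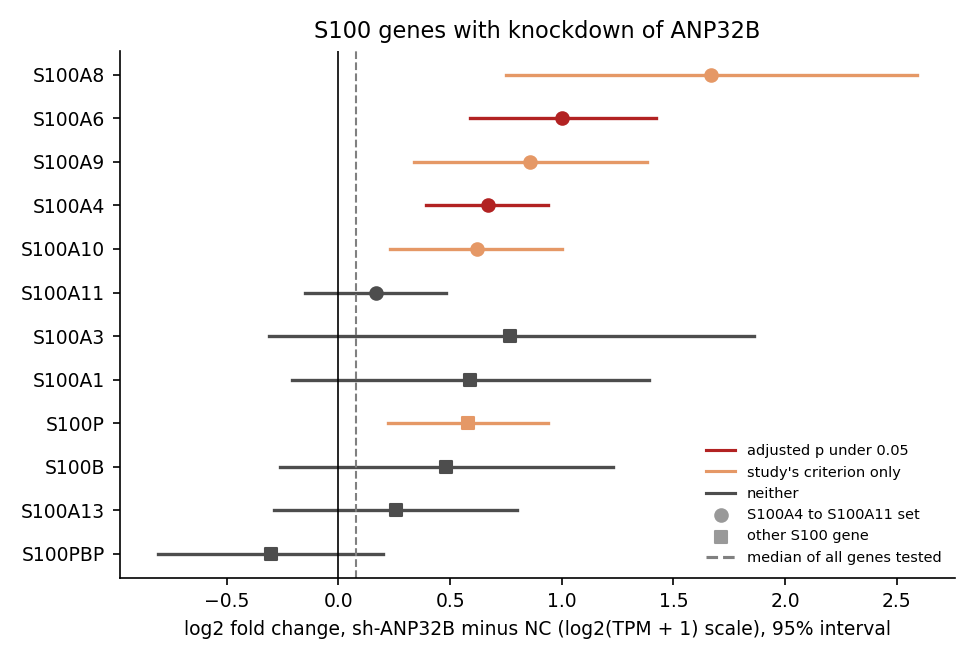
Log2 fold change (sh-ANP32B minus NC, log2(TPM + 1) scale) of the tested S100 genes and S100PBP with 95% intervals from limma. Circles are the 6 genes described first. Squares are the other S100 genes and S100PBP, which is not an S100 gene. The dashed line is the median of all genes, 0.08. The intervals of S100A4, S100A6, S100A8, S100A9, S100A10 and S100P lie above 0.

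Only the 16986 genes with a GENCODE v44 position could be placed in or beside the stretch between S100A10 and S100A1, of 1649125 bp. Among them it held 1 gene that is not an S100 gene, ENSG00000238279. This gene had 0.584 to 1.67 TPM and a log2FC of 0.19 (limma adjusted p 0.826). Beyond the ends of the stretch the 5 nearest tested genes on each side were also read, a choice made after the S100 values were seen. Of these 10 genes, 0 had an adjusted p under 0.05 in limma, and 1, ILF2, had an unadjusted p under 0.05 (0.00258) and was lower by the study's criterion. The log2FC of the abundant ones was 0.03 for MRPL9 and -0.15 for THEM4 before S100A10, and -0.09 for CHTOP, 0.15 for SNAPIN, -0.55 for ILF2 and 0.33 for INTS3 after S100A1. The other 4 genes stayed under 7 TPM, with log2FC values of -0.04 to 0.87.

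The main partner of S100A10 fell, whereas S100A10 itself was higher by the study's criterion alone. ANXA2, which encodes annexin A2, measured 448 and 436.3 TPM in NC, then 204.6 and 173.4 TPM under sh-ANP32B, and fell by 1.23 on the log2 scale (SE 0.133, limma adjusted p 0.0258). S100A10 transcripts were therefore 14.4% and 13.6% of ANXA2 transcripts in NC, and 41.4% and 62.0% in sh-ANP32B. ANXA2 has processed copies with which it can share reads, so its level is uncertain. AHNAK, a giant scaffold protein that binds the complex of S100A10 and annexin A2, measured 80.5 and 87.1 TPM in NC, then 152.7 and 164.4 TPM under sh-ANP32B, and rose with a log2FC of 0.91 (SE 0.130, limma adjusted p 0.0348), a call lost without NC replicate 1 or 2 (limma adjusted p 0.163 and 0.0946).

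**Figure D3:**
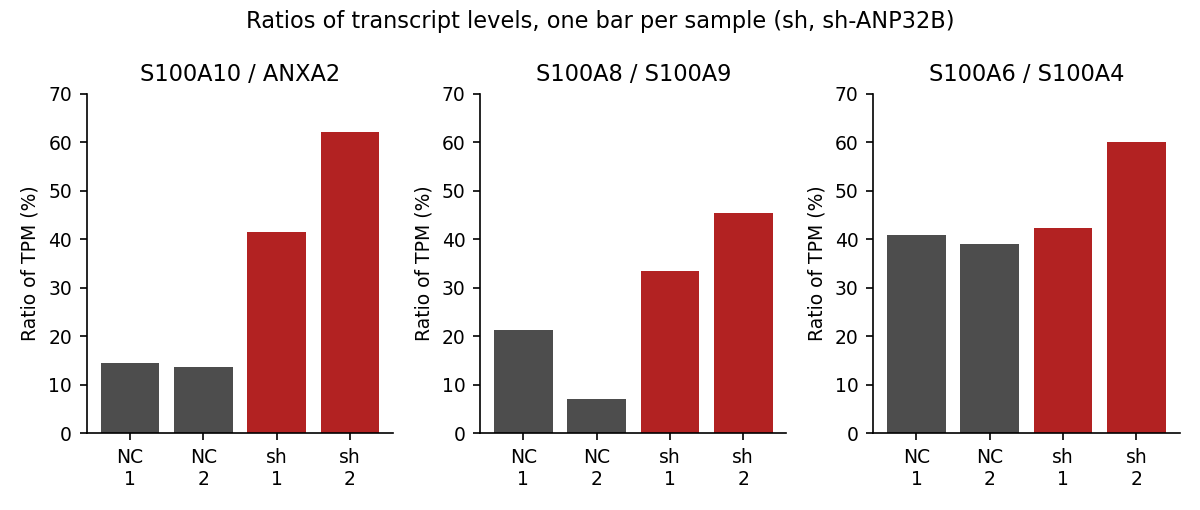
Ratio of TPM between pairs of transcripts in each sample, in percent, with 1 bar per sample (grey NC, red sh-ANP32B). S100A10 relative to ANXA2 went from 13.6 to 14.4% in NC to 41.4 to 62.0% in sh-ANP32B, S100A8 relative to S100A9 was higher in both sh-ANP32B samples, and S100A6 relative to S100A4 was clearly higher in sh-ANP32B replicate 2 alone.

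Among 15 intracellular partners, all tested, 2 rose and 1 fell with an adjusted p under 0.05, where 2.14% of all genes were higher and 1.18% lower by that rule. AHNAK and ANXA2 were among them. By the study's criterion 6 partners were higher and 2 lower, where 12.1% and 6.55% of all genes were. ANXA1, the partner of S100A11, measured 84.4 TPM in each NC sample, then 187.6 and 121.3 TPM under sh-ANP32B, with a log2FC of 0.83 (limma adjusted p 0.0800). PLAU and PLAUR, the urokinase activator of plasminogen and its receptor, had log2FC values of 0.74 and 0.67 (limma adjusted p 0.0581 and 0.0833). MYH9, the myosin bound by S100A4, had a log2FC of 0.30 (limma adjusted p 0.330), and CACYBP, the partner of S100A6, one of -0.47 (limma adjusted p 0.117). The median of the 15 was 0.30.

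Of 10 receptor genes 7 were tested, and 0 passed either rule. BSG, which encodes basigin, a receptor of S100A9, had 400.7 to 526.4 TPM over all samples, with overlapping groups and a log2FC of 0.07 (limma adjusted p 0.823), which was -0.02 after median-of-ratios scaling and -0.16 after GC correction. TLR4, through which calprotectin signals, ranged over 30.7 to 36.2 TPM in NC, then 36.1 to 41.9 TPM under sh-ANP32B, with overlapping groups and a log2FC of 0.21 (limma adjusted p 0.483). MYD88, its adaptor, and CD33 had log2FC values of 0.20 and 0.14. AGER, which encodes RAGE, was scarce, at 0.878 and 0.716 TPM in NC, then 2.432 and 1.495 TPM under sh-ANP32B. Its groups did not overlap, and its log2FC of 0.70 was the largest of the 7 (SE 0.336, 95% interval -0.10 to 1.51, limma adjusted p 0.261). CD14, CD36 and MCAM were not analysed here. The median of the 7 was 0.20.

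Of 6 factors known to act at S100A8 and S100A9, 5 were tested and 1 rose with an adjusted p under 0.05, where 2.14% of all genes did. This was STAT3, a cytokine-activated factor, at 43.3 and 48.9 TPM in NC, then 79.2 and 81.2 TPM under sh-ANP32B (log2FC 0.79, SE 0.140, limma adjusted p 0.0440). The STAT3 call was lost with median-of-ratios scaling, without the trend and without NC replicate 1 or 2 (limma adjusted p 0.0512, 0.121, 0.347 and 0.177). By the study's criterion 2 of the 5 were higher, STAT3 and CEBPB, where 12.1% of all genes were. CEBPB, which encodes a factor of monocytic differentiation, measured 115.3 and 115.5 TPM in NC, then 148.4 and 224.3 TPM under sh-ANP32B, with a log2FC of 0.66 (limma adjusted p 0.119). CEBPA, its counterpart in granulocytic commitment, measured 335 and 318.9 TPM in NC, then 292.1 and 476.9 TPM under sh-ANP32B, with overlapping groups and a log2FC of 0.19 (limma adjusted p 0.662) that was -0.08 after GC correction. SPI1, which encodes PU.1, had a log2FC of 0.43 (limma adjusted p 0.131).

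Of 20 genes of mature monocytes and neutrophils, cells rich in calprotectin, 15 were tested. An adjusted p under 0.05 was reached by 4 higher genes and 1 lower gene, where 2.14% and 1.18% of all genes did. By the study's criterion 10 were higher and 1 lower, where 12.1% and 6.55% of all genes were. TYROBP, the signaling adaptor of many myeloid receptors, ranged over 55.4 to 65.4 TPM in NC, then 210.6 to 270.1 TPM under sh-ANP32B (log2FC 1.97, limma adjusted p 0.0166). SERPINA1, LYZ and CSF3R, for alpha-1-antitrypsin, lysozyme and the receptor of G-CSF, rose with log2FC values of 1.75, 0.97 and 0.88 (limma adjusted p 0.0258, 0.0281 and 0.0455). Without NC replicate 1 or 2 the calls of LYZ (limma adjusted p 0.105 and 0.0789) and CSF3R (0.117 and 0.195) were lost, and that of CSF3R also with median-of-ratios scaling (0.0598). ITGAM, for the CD11b integrin chain, had a log2FC of 0.97 (limma adjusted p 0.0551). AIF1, an EF-hand protein of macrophages, fell by 1.02 (limma adjusted p 0.0448), a call lost without NC replicate 1 or 2 (limma adjusted p 0.115 and 0.215). Without the abundance trend no gene of any list passed, ANP32B included. The median of the 15 was 0.66, against 0.76 for the 6 S100 genes and 0.08 for all genes.

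Genes of neutrophil secondary granules were mostly not analysed here, with 2 of 8 tested. CAMP, for cathelicidin, ranged over 2.31 to 3.84 TPM in NC, then 5.45 to 7.18 TPM under sh-ANP32B (log2FC 0.86, limma adjusted p 0.144). CHI3L1 had a log2FC of -0.30 (limma adjusted p 0.186).

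Of 20 other EF-hand calcium binders all were tested, and 0 had an adjusted p under 0.05 in limma, with 5 at an unadjusted p under 0.05. By the study's criterion 1 was higher, NUCB1 (log2FC 0.52), and 3 were lower, where 12.1% and 6.55% of all genes were. Their median log2FC was 0.02. NUCB2, RCN1 and CALU, calcium binders of the secretory pathway, had values of -0.74, -0.73 and -0.72 (limma adjusted p 0.0724, 0.0581 and 0.0550).

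**Figure D4:**
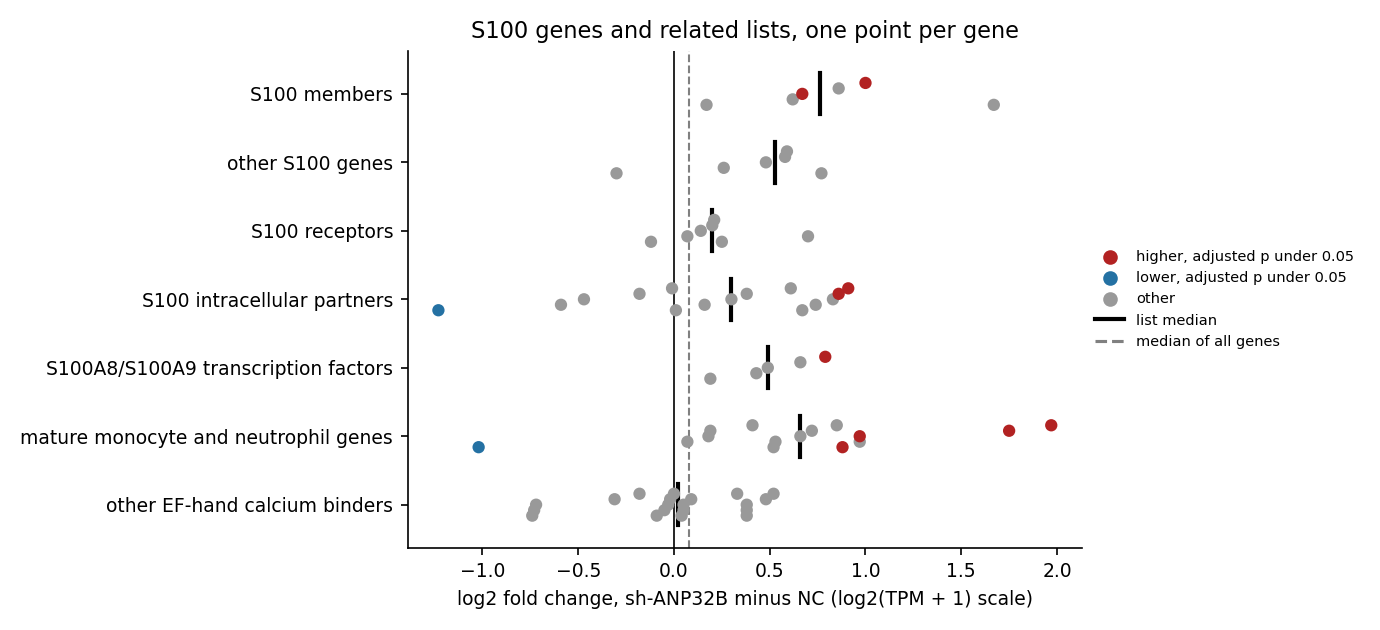
Log2 fold change (log2(TPM + 1) scale) of each tested gene in the S100 set and 6 other lists, with list medians as black bars and the median of all genes as a dashed line. The S100 median is 0.76, the mature myeloid median 0.66 and the EF-hand median 0.02, and ANXA2 is the lowest point among the partners at -1.23.

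Genes with a like profile were sought by the Euclidean distance between log2(TPM + 1) values centred over the 4 samples, among 9743 genes with a mean of at least 10 TPM. The nearest to S100A4 were RASSF5, NEDD9 and RNF216 (distances 0.0137, 0.0226 and 0.0287). The nearest to S100A6 were MIB2, EHD1 and NCF4 (0.0324, 0.0581 and 0.0613). For S100A9 they were MST1P2, DEDD2 and ENSG00000274272 (0.0393, 0.0442 and 0.0455), and for S100A8 they were ENSG00000229512, TYMP and ENSG00000273936, at larger distances of 0.176, 0.226 and 0.376. S100A8 itself had at most 6.63 TPM, so genes as scarce as S100A8 were not among the candidates. With 4 samples such profiles hold little beyond the difference between the groups and between the sh-ANP32B replicates.

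Transcripts of other cell types were read beside these results. Of 5 T cell markers 1 was in the table, CD2, which rose from 1.57 to 1.65 TPM in NC to 9.25 to 9.48 TPM in sh-ANP32B (log2FC 1.99, limma adjusted p 0.0261). Of 5 B cell markers 3 were in the table, with a summed level of 10.5 to 11.4 TPM in NC and 4.94 to 7.96 TPM in sh-ANP32B. PAX5, which this AML subtype can express, had a log2FC of -0.70 (limma adjusted p 0.193), and CD79A was listed at 0 in 1 sh-ANP32B sample. The 5 erythroid, 5 epithelial and 5 fibroblast markers were not analysed here. The part of other cells in the S100 levels was not tested.

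Over all genes, 360 were higher and 199 lower at an adjusted p under 0.05. Other scalings moved this split, to 230 and 288 (median-of-ratios), 244 and 234 (quantile), and 1174 and 1368 (GC correction, over 15427 genes with a GC content). All 6 S100 genes kept a positive log2FC under each of these. The S100 calls were less steady, since the adjusted p of S100A4 and S100A6 lay close to the threshold. With median-of-ratios scaling it was 0.0558 and 0.0520, and without the abundance trend of limma it was 0.134 and 0.122, so that 0 of the 6 passed in either fit, although 5 kept an unadjusted p under 0.05. With GC correction 5 passed, all but S100A11.

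The count also turned on single libraries. Without NC replicate 1 there were 2 genes at an adjusted p under 0.05, S100A6 and S100A8, and without NC replicate 2 there were 0, with 4 of the 6 past the study's criterion. Without sh-ANP32B replicate 1 there were 5, all but S100A11, and without sh-ANP32B replicate 2 there were 4, S100A4, S100A6, S100A10 and S100A11. Each of these fits assumes that the lone sample varies like the other group and has 1 residual degree of freedom. By the study's criterion the 4 fits gave 5, 4, 5 and 4 of the 6 genes.

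**Figure D5:**
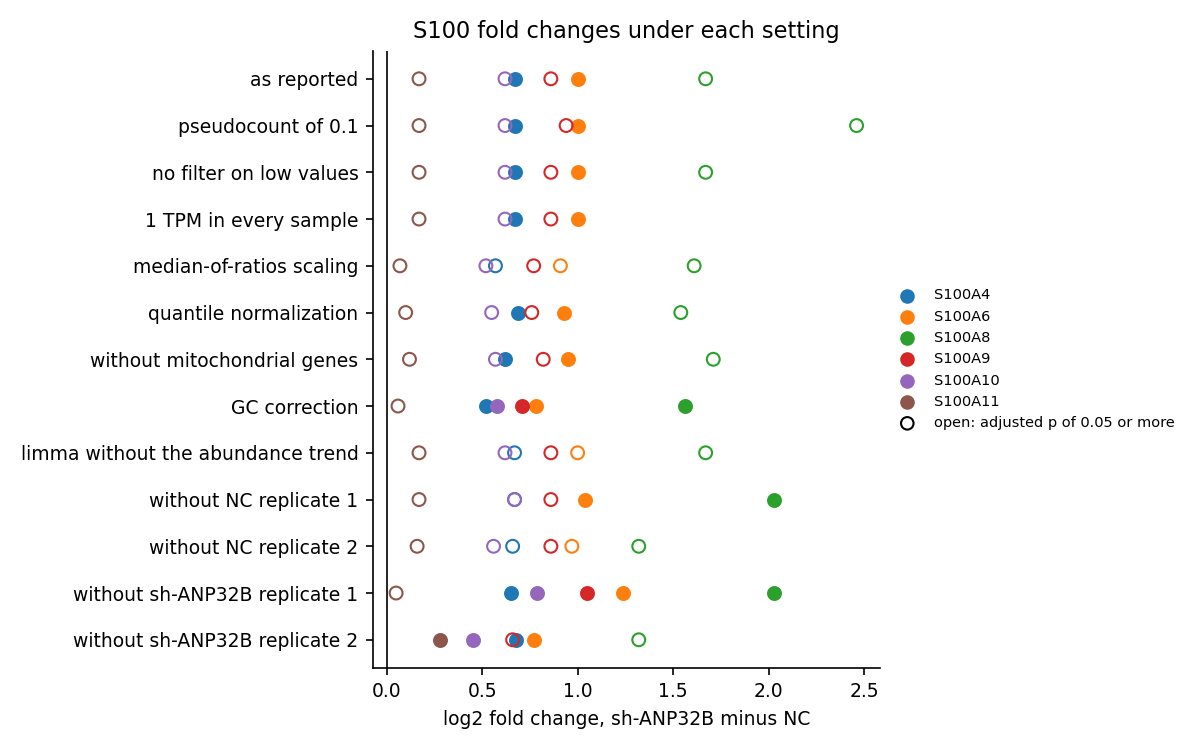
Log2 fold change of the 6 S100 genes (horizontal axis) under each setting without a replicate block (rows). S100A8 has no point where 1 TPM was required in every sample. Filled points have an adjusted p under 0.05 and open points do not. Every point lies above 0, from 0.05 for S100A11 without sh-ANP32B replicate 1 to 2.46 for S100A8 with a pseudocount of 0.1. Many of these signs were fixed in advance.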

How the data were processed

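RNA-seq libraries (Illumina TruSeq, total RNA) of 2 NC and 2 sh-ANP32B samples of Kasumi-1 cells were analysed. The authors aligned reads to hg38 with HISAT2 (v2.0.5), and deposited 1 table of TPM values per gene, a unit identified from values that sum to between 997812 and 998314. The quantifier, annotation and filters are not given in the sources used here. TPM keeps no depth, so no counting interval could be given. No 2 replicates held identical values.

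Of 18567 gene IDs, 16986 were found in GENCODE v44. The filter kept genes that reached 1 TPM in 2 or more of the samples, and log2(TPM + 1) was compared in all 4 samples with limma (3.58.1, R 4.3.3, abundance trend, two-sided, Benjamini-Hochberg over 16817 genes). The study's own test models counts, which TPM values do not hold. The limma step was tested on data simulated with the fitted variances. An adjusted p under 0.05 was reached by 14.7% of genes changed by 1 on the log2 scale. It was reached by 68.9% of genes changed by 2, and 4.12% of the calls were false.

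The S100 genes and all lists were chosen with earlier results of these data known. Named genes are all S100 genes of the table and, per list, up to 6 that passed the adjusted p or else the criterion, by absolute fold change, or the most abundant up to 3 where fewer than 3 passed. For S100A4, S100A6, S100A8 and S100A9 the 3 nearest profiles are named. Genes outside that rule that are named (MYH9, CACYBP, TLR4, AGER, SPI1, KIT, CD33 as a marker and the flanking genes) were chosen after their values were seen. Some members of the lists are not reported here by name. S100PBP was not used to bound the chromosome 1 stretch. Motifs were searched on both strands of RefSeq windows of 300 bases. Alternatives were a pseudocount of 0.1, other filters, median-of-ratios, quantile, mitochondrial and GC (loess span 0.3) adjustments, a replicate block, no trend, and leaving out each sample. Figures were drawn with Python 3.11.15 and matplotlib 3.10.9.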

Additional observations from a re-analysis of the deposited data

How the results depend on the processing

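The 6 S100 genes gave 83 fold changes over 14 alternative settings, 1 per gene and setting where tested, and all 83 were positive. Many of these signs were fixed in advance. Filters, the replicate block and the trend leave a fold change as it is. Both sh-ANP32B values lay above both NC values in all 6 genes, so the pseudocount and leaving out 1 sample could not turn a sign. Only settings that rescale the samples or correct for GC could. Over the 10 settings that kept all samples, S100A4 was called at an adjusted p under 0.05 in 7 and S100A6 in 8. S100A8 was called in 2 of 9, S100A9 in 2 of 10, S100A10 in 1 and S100A11 in 0. The count of S100 genes called, 2 as reported, was 0 with median-of-ratios scaling, 0 without the abundance trend, 5 after GC correction, 4 with the replicate block and 1 with both together, and ranged from 0 to 5 over the fits that each left out 1 sample. The cause was not tested. Replicate numbers gave no sign of pairing (across genes, deviations of same-numbered samples correlated at Pearson -0.0925 and Spearman -0.168), so the replicate block is given here only. Over all genes 559 passed the adjusted p. This became 1473 with the replicate block. With GC correction, which left 15427 genes, it became 2542 alone and 1746 with the block. Without the abundance trend it was 0, a fit in which 3701 passed at an unadjusted p under 0.05. In that fit ANP32B itself had an adjusted p of 0.0929 in limma. Leaving out 1 sample gave 273 to 4079. The count past the study's criterion, 3130, ranged from 1884 to 3953 over those fits. The median log2 fold change of the S100 genes ranged from 0.67 to 0.92 over them. Signs reversed for BSG (-0.02 after median-of-ratios scaling, -0.16 after GC correction with or without the block, and -0.12 to 0.27 on leaving out 1 sample), for CEBPA (-0.08 after GC correction with or without the block, and -0.16 to 0.54 on leaving out 1 sample), and, on leaving out 1 sample, for CD79A (-1.15 to 0.51) and ENSG00000238279 (-0.16 to 0.53). None of these 4 was called as reported. S100A8 was not tested where 1 TPM was required in every sample. TPM holds no depth, so the precision of the lowest transcripts, S100A8 among them, is unknown.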
